A study of Mus musculus with 2 samples.

Results

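Among cells sorted from mouse thymus on the epithelial surface protein EPCAM, 56 of 7621 kept barcodes met a marker rule for thymocytes, the developing T cells that epithelial cells of the thymus select. They were chosen by their own counts: a barcode needed a UMI (unique molecular identifier, 1 counted transcript molecule) in at least 3 of the 7 genes Cd3e, Cd3d, Cd3g, Lck, Cd8a, Cd8b1 and Rag1. A kept barcode had 500 or more genes, 1000 or more UMIs and no more than 10% of UMIs from mitochondrial genes. The cells are called thymocyte-marker cells below, and the remaining kept barcodes are called other cells. Not every one held wider T cell RNA: 3 KO and 3 WT cells had UMIs of at most 2 of 19 T cell receptor and signalling genes that the rule did not use. The library labelled KO came from Foxp1 Cre+ mice and the library labelled WT from Foxp1 Cre- mice, where Foxp1 is a forkhead transcription factor. Both were live EPCAM+ cells from thymus digested with liberase and DNase and enriched on Percoll. The sources used here give no Cre driver, no deleted exons and no number, age or sex of the animals. Each genotype was 1 library, so no difference has a replicate check and no test was possible. The 95% intervals below are exact and cover counting error alone; how animals or sorts vary is outside them.

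Thymocytes enter the thymus without CD4 or CD8, rearrange their T cell receptor (TCR) genes with the Rag1 and Rag2 recombinase in the cortex, and pass through a stage with both CD4 and CD8. Cortical epithelium (cTEC) then selects cells whose receptor binds MHC. Selected cells keep CD4 or CD8 and move to the medulla, where medullary epithelium (mTEC) displays tissue antigens to them. The CD3 chains carry the receptor's signal through kinases such as LCK and ZAP70.

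Thymocyte-marker cells made up 25 of 3584 kept cells (0.698%, interval 0.452 to 1.03%) in the library labelled KO and 31 of 4037 (0.768%, interval 0.522 to 1.09%) in that labelled WT. The log2 ratio of the shares was -0.14, with an interval from -0.96 to 0.67, so a difference was not detectable with these numbers of cells. The deposited libraries held 25233944 UMIs over 4277 barcodes (KO) and 33120715 UMIs over 4957 barcodes (WT). The thymocyte-marker cells had medians of 5009 UMIs (KO) and 4197 UMIs (WT), and the other cells medians of 5098 UMIs (KO) and 6283 UMIs (WT). The deposited libraries shared 5 barcodes, of which 0 were thymocyte-marker cells. Foxp1 went against the labels in the other cells: it was at 397 CPM (UMIs per 1000000) in the library labelled KO and at 253 CPM in that labelled WT, counted over the whole gene, so a deleted part could not be seen.

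The cells at the threshold of the rule differed on genes the rule did not use. Just inside it, with 3 of the 7 markers, stood 8 KO and 19 WT cells, with medians of 5.5 (KO) and 9 (WT) genes detected of a list of 19 TCR and T cell signalling genes. Just outside, with 2 markers, stood 19 KO and 38 WT cells, with a median of 1 such gene in each library. Of those outside, 14 of 19 (KO) and 32 of 38 (WT) held Epcam UMIs, 10 (KO) and 16 (WT) held a TCR constant region UMI, and their medians were 11626 UMIs (KO) and 11452.5 UMIs (WT). Only 1 cell, in the library labelled KO, had all 7 markers.

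The marker genes themselves describe how the cells were found. Cd3e, Cd3d and Cd3g, the CD3 chains, were present in 22, 23 and 21 of the 25 KO cells and in 31, 30 and 26 of the 31 WT cells. Lck, the kinase bound to CD4 and CD8, was present in 14 KO and 13 WT cells. The CD8 chains Cd8a and Cd8b1 were present in 7 and 8 KO cells and in 5 and 5 WT cells. Rag1 was present in 4 KO cells, with 9 UMIs, and in 0 of 31 WT cells, which allows a share of up to 9.68% of cells with a UMI by the 1-sided limit of 3 counts. For Cd3g, 49 of the 99 UMIs of the KO cells came from 1 cell.

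Genes of the receptor and its signalling that the rule did not use were shared by these cells. A UMI of a TCR constant region (Trac, Trbc1 or Trbc2) was found in 23 of 25 KO cells (92%, interval 73.97 to 99.02%) and in 28 of 31 WT cells (90.3%, interval 74.2 to 97.96%). Among the other cells the shares were 6.32% (KO) and 7.34% (WT). Cells with at least 3 endothelial markers, which should lack TCR RNA, gave a background of 19 of 302 cells (6.29%) in the library labelled KO and 8 of 123 cells (6.504%) in that labelled WT, at medians of 5283.5 (KO) and 9219 (WT) UMIs. The thymocyte-marker cells held a median of 10 of the 19 TCR list genes in each library, and the other cells a median of 0. Cd247, the zeta chain of the receptor, was the list gene with the highest background, found in 56% of KO and 54.8% of WT thymocyte-marker cells, against 10.6% (KO) and 24.4% (WT) of endothelial-marker cells. Thy1, a thymocyte surface protein, stood closer to its background in the library labelled WT, found in 24% of KO and 12.9% of WT thymocyte-marker cells, against 3.31% (KO) and 7.32% (WT) of endothelial-marker cells.

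**Figure D1:**
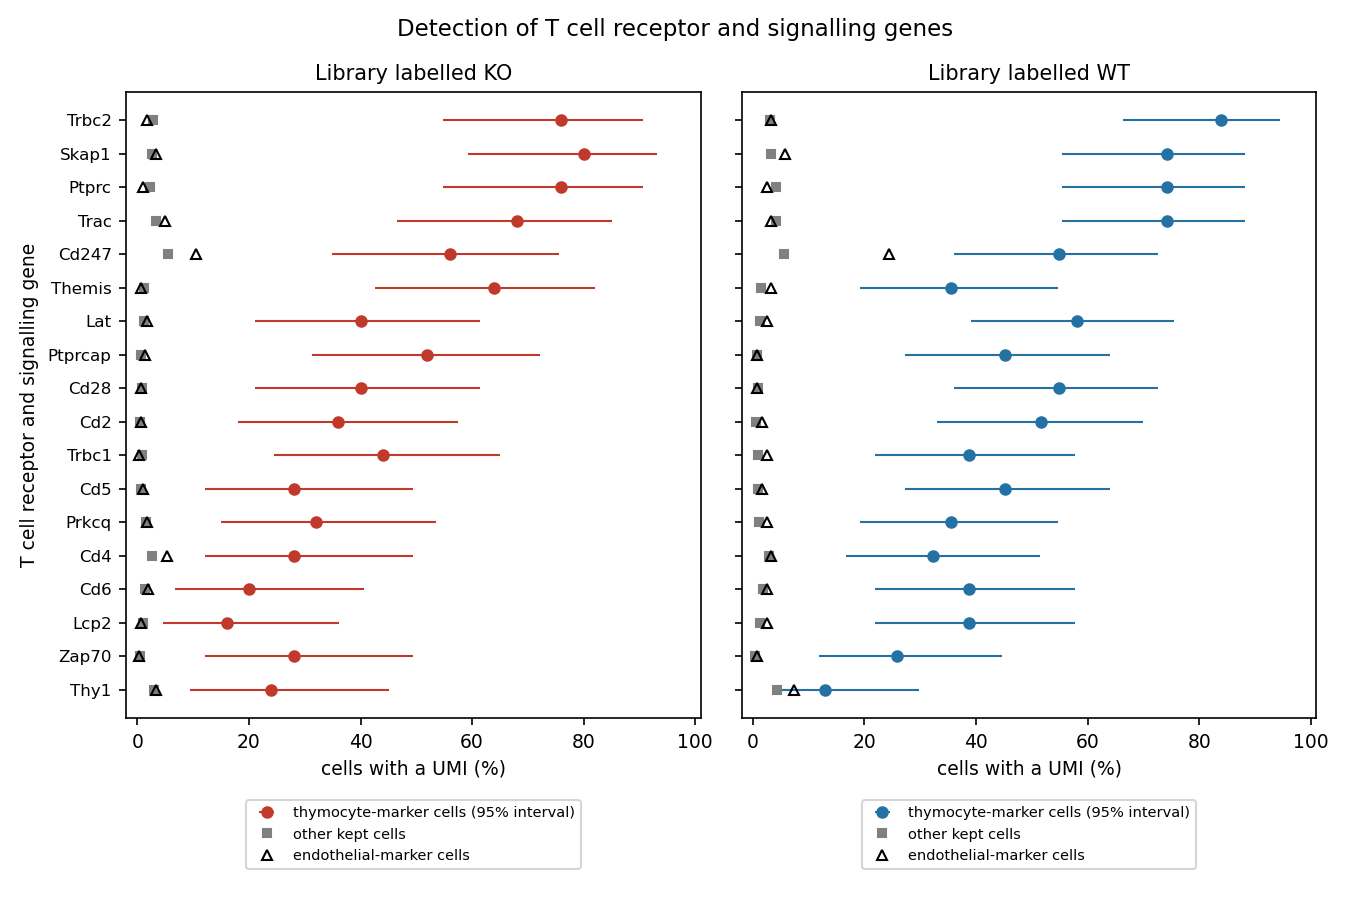
Share of cells with a UMI (x axis, percent) of each of 18 TCR and T cell signalling genes (y axis) in thymocyte-marker cells (circles, 95% Clopper-Pearson interval), other kept cells (squares) and endothelial-marker cells (triangles), with the library labelled KO at left and that labelled WT at right. Trbc2 was found in 76% of KO and 83.9% of WT thymocyte-marker cells, against 2.75% (KO) and 3.15% (WT) of other cells.

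Trbc2, a constant region of the TCR beta chain, had 150 UMIs in 19 KO cells and 138 UMIs in 26 WT cells. Its near-identical neighbour Trbc1 had 33 UMIs in 11 KO cells and 49 UMIs in 12 WT cells, and the division of reads between both copies is uncertain. Trac, the constant region of the alpha chain, had 39 UMIs in 17 KO cells and 50 UMIs in 23 WT cells. When each cell was thinned to 1000 UMIs, Trbc2 was found in 60% of KO and 54.8% of WT thymocyte-marker cells, against 0.73% (KO) and 0.70% (WT) of other cells. Variable, diversity and joining segments gave 20 UMIs over 17 different segments in 14 KO cells, and 18 UMIs over 13 segments in 10 WT cells, with at most 2 UMIs for any segment. Other cells held such segments in 1.04% (KO) and 1.498% (WT) of barcodes.

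Measured as summed UMIs over the thymocyte-marker cells against the other cells, the list of 19 stood apart from most genes. All 19 genes were at least 2-fold higher in the thymocyte-marker cells of each library, where 11.9% (KO) and 11% (WT) of all genes tested were. The median log2 ratio of the list was 5.80 (KO) and 5.06 (WT), against 0 (KO) and 0 (WT) over all genes, with genes at 0 on 1 side placed at their bound. Cd28, a co-stimulatory receptor, had 21 UMIs (112 CPM) in KO and 32 UMIs (98.6 CPM) in WT thymocyte-marker cells, against 1.69 CPM (KO) and 1.48 CPM (WT) in other cells. Among the 10 genes that led the ranking by the lower bound over both libraries were Trbc1, Ptprcap, Trbc2, Cd28, Arhgap15, Cd2, Cd5, Satb1 and Skap1. Cd2 and Cd5 are T cell surface proteins, Skap1 is an adaptor of adhesion signalling, and Satb1 is a chromatin organiser of thymocytes. Arhgap15 belonged to none of the T lineage lists.

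Transcription factors of the T lineage divided into those that marked these cells and those the epithelium shares. Of 15 such genes, 11 (KO) and 10 (WT) were at least 2-fold higher than in other cells. The shares over all genes were 11.9% (KO) and 11% (WT). At least 2-fold lower were 1 (KO) and 2 (WT), against 8.78% (KO) and 8.69% (WT) of all genes. Satb1 was at 1025 CPM in KO and 610.2 CPM in WT thymocyte-marker cells, against 18.7 CPM (KO) and 19.3 CPM (WT) in other cells. Lef1, which acts with the TCF1 factor in early T cells, was at 287 CPM (KO) and 250 CPM (WT), against 9.40 CPM (KO) and 8.49 CPM (WT). Ets1, Tcf7, Ikzf3 and Bcl11b were likewise higher, Bcl11b, which commits cells to the T lineage, by log2 ratios of 2.63 (KO) and 1.89 (WT). Sox4 was at 494 CPM (KO) and 179 CPM (WT) in the thymocyte-marker cells and at 479 CPM (KO) and 377 CPM (WT) in other cells, and was thus no mark of them. Zbtb7b, the CD4 lineage factor, had 1 UMI in KO and 2 UMIs in WT thymocyte-marker cells.

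Epcam, the gene of the sorting antigen, divided the cells. Epcam UMIs were present in 13 of 25 KO cells (52%, interval 31.3 to 72.2%) and in 14 of 31 WT cells (45.2%, interval 27.3 to 63.97%), against 75.5% (KO) and 79.4% (WT) of other cells and 53.0% (KO) and 59.3% (WT) of endothelial-marker cells. After thinning to 1000 UMIs the shares were 20% (KO) and 19.4% (WT) of thymocyte-marker cells, 19.2% (KO) and 22.8% (WT) of endothelial-marker cells, and 37.7% (KO) and 37.6% (WT) of other cells. Depth differed with it: cells with Epcam had medians of 9609 UMIs (KO) and 15367 UMIs (WT), and cells without had medians of 2886 UMIs (KO) and 3330 UMIs (WT). The lowest total with Epcam was 4057 UMIs in KO cells and 3272 UMIs in WT cells.

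The count of TCR molecules per cell varied less with Epcam than the total of UMIs did. TCR constant region UMIs per cell had a median of 6 in KO cells with Epcam and 10 in KO cells without, and of 7 in WT cells with Epcam and 9 in WT cells without. As a share of all RNA, the 100 T lineage genes outside the rule took medians of 99.8 per 10000 UMIs in KO cells with Epcam and 337 in KO cells without. In WT cells the medians were 76.4 with Epcam and 253 without. Epithelial genes ran the other way: 10 epithelial genes took medians of 41.9 per 10000 UMIs in KO cells with Epcam and 3.37 in KO cells without, and of 34.3 in WT cells with Epcam and 0 in WT cells without. Other cells were at medians of 44.9 (KO) and 46.2 (WT). By these medians, cells with Epcam stood near other cells in epithelial RNA and above their T lineage medians of 41.7 (KO) and 42.2 (WT) per 10000. The 100 genes include some that other cells also hold, so the sum is not T cell RNA alone. Cd52, Ccl5 and Egr1 gave 102, 48 and 18 of the 186 UMIs in 1 KO cell with Epcam. In 1 WT cell with Epcam they gave 33, 61 and 16 of 157. Their part in the medians was not tested. Doublets were neither called nor removed, and the part of shared droplets or of free RNA in this was not tested.

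**Figure D2:**
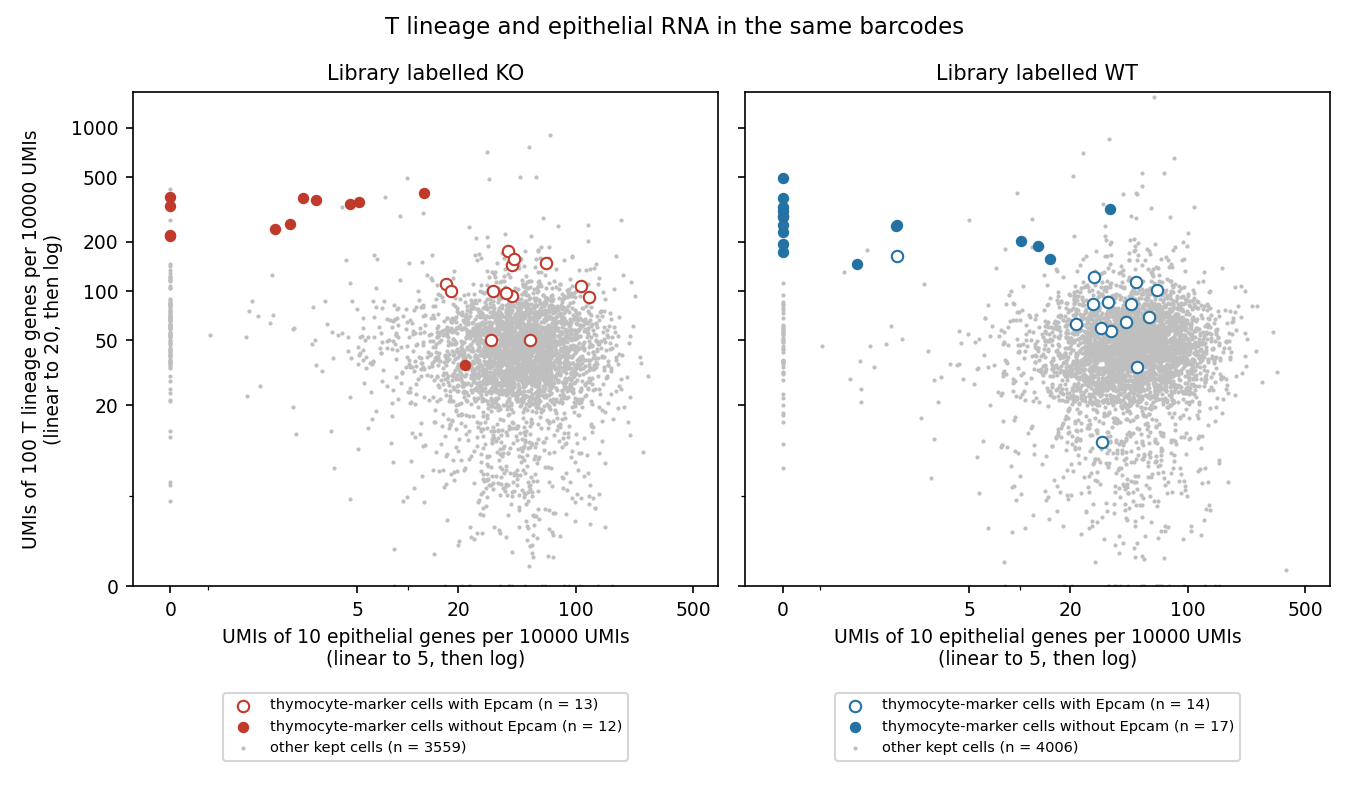
UMIs of 100 T lineage genes (y axis) against UMIs of 10 epithelial genes (x axis), both per 10000 UMIs of the same barcode and on scales that turn from linear to log, for thymocyte-marker cells with Epcam (open circles), thymocyte-marker cells without Epcam (filled circles) and other kept cells (grey), library labelled KO at left and WT at right. WT cells without Epcam sit at 146 T lineage UMIs per 10000 or more and KO cells without Epcam higher than that, apart from 1 KO cell at 35.3, while those with Epcam lie above or within the grey cloud.

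The cells without Epcam held T lineage RNA at higher ratios. Over these 12 KO and 17 WT cells, the 19 TCR list genes had median log2 ratios of 7.06 (KO) and 6.57 (WT) over other cells, and 63 of 94 (KO) and 61 of 96 (WT) tested T lineage genes were at least 2-fold higher, where 11.9% (KO) and 11.3% (WT) of all genes were. For all thymocyte-marker cells these counts were 59 of 94 (KO) and 53 of 96 (WT). Krt5 and Krt14, keratins of medullary and basal epithelium, had 1 and 0 UMIs over the KO cells and 0 and 0 UMIs over the WT cells without Epcam. Aire, the regulator of tissue antigens in mTECs, had 3 UMIs (KO) and 0 UMIs (WT) there, against 108 UMIs in KO cells and 135 UMIs in WT cells with Epcam. Ribosomal protein genes took a median of 17.5% of UMIs in KO cells and 20.8% in WT cells without Epcam, against 6.93% (KO) and 6.47% (WT) in other cells.

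MHC class II RNA, which mTECs and cTECs make for antigen display, was higher in most cells with Epcam. The 7 class II genes summed to 2587 UMIs in the 13 KO cells with Epcam and to 5117 UMIs in the 14 WT cells with Epcam. In cells without Epcam they summed to 567 UMIs (KO) and 78 UMIs (WT). Medians per cell were 175 UMIs in KO cells with Epcam and 0.5 in KO cells without, and 326 UMIs in WT cells with Epcam and 2 in WT cells without. The groups overlapped: 1 KO cell with Epcam held 5 class II UMIs and 2 WT cells with Epcam held 1 and 6, while the WT cells without Epcam reached 23. Of the 567, 535 UMIs were in a single KO cell of 8207 UMIs, which also held 49 Cd3g UMIs, 2 Cd3d UMIs, 1 Cd3e UMI and 1 TCR constant UMI. Its T lineage RNA, 35.3 per 10000 UMIs, was the lowest of the KO cells without Epcam. Of the 5 thymocyte-marker cells without any TCR constant UMI, 4 had Epcam (1 KO, 3 WT), with class II sums from 123 to 835 UMIs. The fifth, a KO cell without Epcam, held 2 UMIs of Trdc, the constant region of the delta chain. The 3 KO and 3 WT cells with at most 2 TCR list genes held 307 to 535 (KO) and 123 to 835 (WT) class II UMIs, and 2 of the KO and 3 of the WT cells had Epcam.

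UMIs of both CD4 and CD8 genes were found in few of the cells. Cd8a and Cd8b1 belong to the rule, so these shares describe the chosen cells and support nothing about stage or genotype. UMIs of Cd4 together with Cd8a or Cd8b1 were found in 5 of 25 KO cells (20%, interval 6.83 to 40.7%) and in 0 of 31 WT cells (exact 2-sided interval 0 to 11.2%), and the intervals overlapped. Cd4 alone was found in 2 KO and 10 WT cells, CD8 chains alone in 6 KO and 7 WT cells, and neither in 12 KO and 14 WT cells. At these depths an absent UMI does not show an absent transcript: after thinning to 1000 UMIs, Cd4 was found in 1 KO and 2 WT cells. Rag2 had 0 UMIs in both libraries, Dntt, which adds bases at TCR joints, 0 (KO) and 2 (WT) UMIs, and Ptcra, the chain that pairs with the early beta chain, 1 (KO) and 3 (WT) UMIs. The 2 Dntt UMIs were in 1 WT cell with Epcam and 0 TCR list genes. The KO Ptcra UMI was in a cell with Epcam and 1 TCR list gene, while 1 WT Ptcra UMI was in a cell without Epcam.

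Arpp21, an RNA-binding protein gene high in CD4+CD8+ thymocytes, had 17 UMIs in 5 KO cells and 1 UMI in 1 WT cell, a log2 ratio of 4.87 with an interval from 2.20 to 10.3. In cells without Epcam it had 3 UMIs in 1 KO cell and 0 UMIs in WT cells. Other cells held Arpp21 UMIs in 3.09% (KO) and 2.97% (WT) of barcodes. Ccr9, the receptor for the thymic chemokine CCL25, had 23 UMIs in 9 KO cells and 10 UMIs in 7 WT cells, a log2 ratio of 1.99 (interval 0.86 to 3.22). In cells without Epcam the Ccr9 counts were 11 UMIs (KO) and 9 UMIs (WT), a log2 ratio of 0.90 with an interval from -0.51 to 2.35 that includes 0. The 4 KO cells with Rag1 had 1353, 2393, 4352 and 9562 UMIs. That of 2393 UMIs held all 7 markers, 3 UMIs of Rag1 and 3 UMIs of Arpp21. Those of 4352 and 9562 UMIs each held 5 UMIs of Arpp21, with 3 and 2 UMIs of Rag1.

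The Rag1 cells of 4352 and 9562 UMIs also carried cortical epithelial RNA. Psmb11, the cTEC-specific proteasome subunit, had 16 and 11 UMIs in them, Prss16, a thymus-specific protease, 44 and 27 UMIs, and Ccl25 63 and 27 UMIs. Both had Epcam UMIs, 1 and 9. In the library labelled WT, 2 cells held Psmb11: a cell of 7010 UMIs without Epcam had 4 UMIs of it and 8 of Prss16, and a cell of 33548 UMIs with Epcam had 12 UMIs of it and 44 of Prss16. Neither WT cell held a Rag1 or Arpp21 UMI. With at least 2 of Psmb11, Prss16 and Ccl25 as the measure, 2 of 25 KO cells (8%, interval 0.984 to 26.0%) and 4 of 31 WT cells (12.9%, interval 3.63 to 29.8%) carried cortical RNA, against 4.05% (KO) and 3.92% (WT) of other cells. These intervals include the shares of the other cells. The cortical cells set much of the list's sum: 551 of the 706 UMIs of 11 cTEC genes in KO cells came from the 2 cells with Psmb11.

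**Figure D3:**
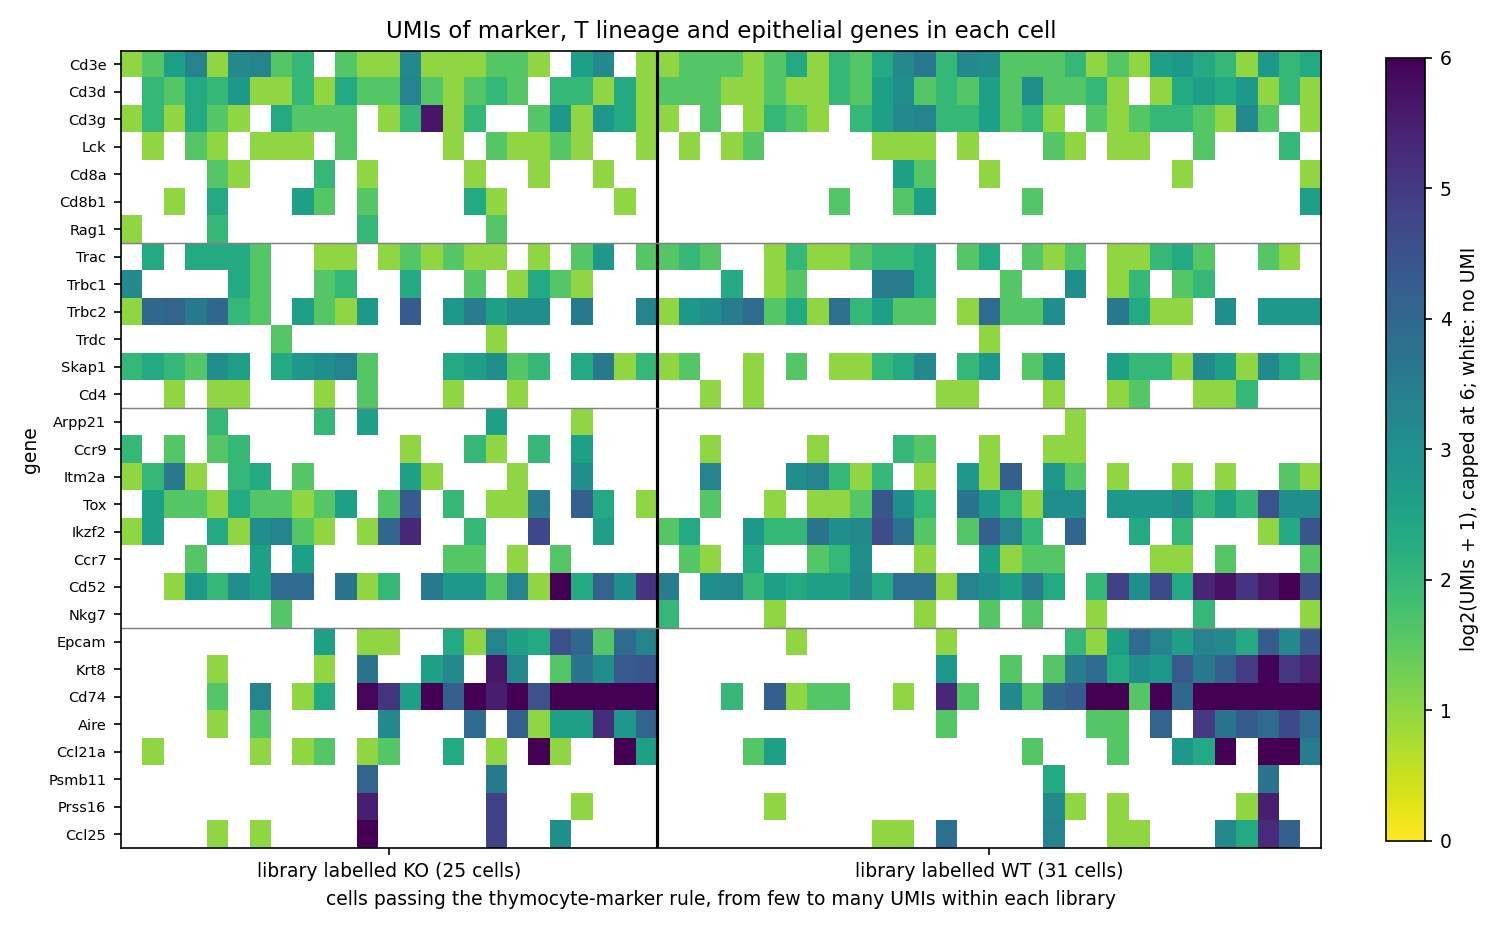
UMIs of 29 genes (rows) in each of the 25 KO cells (left of the line) and 31 WT cells (right), ordered from few to many UMIs within each library, with colour giving log2(UMIs + 1) capped at 6 and white no UMI. The CD3 rows are filled in most cells and the TCR rows (Trac, Trbc1, Trbc2) with more gaps, Rag1 is filled in 4 KO cells, and the epithelial rows fill toward the deeper cells.

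Genes of selection and maturation were also found in these cells. As summed UMIs over other cells, the selection, maturation and CD4+CD8+ stage lists had log2 ratios of 0.62, 1.10 and 1.80 in KO. In WT these were 0.47, 0.92 and 0.59. Of the 475 KO UMIs of the maturation list, 102 were Cd52 UMIs of 1 cell with Epcam and 1 TCR list gene. Over the cells without Epcam the ratios of the 3 lists were 1.14, 1.86 and 2.58 in KO. In WT they were 1.35, 1.94 and 1.46. Itm2a, which rises as thymocytes are selected, had 39 UMIs in 11 KO cells and 71 UMIs in 17 WT cells, at 207 CPM (KO) and 219 CPM (WT), against 5.94 CPM (KO) and 6.81 CPM (WT) in other cells. Ikzf2, which encodes the factor Helios, had 118 UMIs in 14 KO cells and 161 UMIs in 21 WT cells. Tox, needed for CD4 lineage development, was present in 19 KO and 24 WT cells, but also in 48.6% (KO) and 48.7% (WT) of other cells. Of the 13 selection genes, 8 (KO) and 7 (WT) were at least 2-fold higher than in other cells. The shares over all genes were 11.9% (KO) and 11% (WT). At least 2-fold lower were 0 (KO) and 1 (WT) of the 13. In the list, 3 of the 13, Egr1, Egr2 and Egr3, are immediate early genes that other cells held in 18.0 to 78.3% of barcodes. Egr1 was found in 2 of 12 KO and 3 of 17 WT cells without Epcam.

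Ccr7, the receptor that draws selected cells into the medulla, had 19 UMIs in 7 KO cells and 36 UMIs in 15 WT cells, with most of them (12 in KO, 30 in WT) in cells without Epcam. Ms4a4b had 14 UMIs in 4 KO cells and 31 UMIs in 11 WT cells, and Gimap6 29 UMIs in 13 KO cells and 55 UMIs in 19 WT cells. Of the mature list, 10 of 14 (KO) and 10 of 15 (WT) tested genes were at least 2-fold higher than in other cells. The shares over all genes were 11.9% (KO) and 11% (WT). S1pr1, which cells use to leave the thymus, was at 21.2 CPM (KO) and 46.2 CPM (WT), against 24.0 CPM (KO) and 26.7 CPM (WT) in other cells, log2 ratios of -0.17 (interval -2.05 to 1.19) in KO and 0.79 (interval -0.05 to 1.52) in WT. Of the 11 genes of the earliest stages, without CD4 or CD8, 2 (KO) and 0 (WT) were at least 2-fold higher, where 11.9% (KO) and 11% (WT) of all genes were, and 3 (KO) and 2 (WT) at least 2-fold lower, where 8.78% (KO) and 8.69% (WT) were. Of 8 tested genes of the CD4+CD8+ stage, 4 were at least 2-fold higher in each library and 1 (KO) and 2 (WT) at least 2-fold lower. Over the cells without Epcam, 5 (KO) and 1 (WT) of these 8 were at least 2-fold higher. The shares over all genes there were 11.9% (KO) and 11.3% (WT).

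Genes of regulatory and innate-like T cells differed widely in level. The 7 genes of the regulatory list summed to 712 CPM (KO) and 761 CPM (WT), against 119 CPM (KO) and 166 CPM (WT) in other cells, and 118 of their 134 KO UMIs and 161 of their 247 WT UMIs were of Ikzf2 (Helios). Of 6 tested, 3 in each library were at least 2-fold higher than in other cells, where 11.9% (KO) and 11% (WT) of all genes were. Without Epcam 4 (KO) and 5 (WT) of the 6 were, where 11.9% (KO) and 11.3% (WT) of all genes were. Tnfrsf18, the receptor GITR, had 3 UMIs in 3 KO cells and 14 UMIs in 10 WT cells. The 15 innate-like genes summed to 648 CPM (KO) and 749 CPM (WT), against 503 CPM (KO) and 687 CPM (WT) in other cells. Ccl5, a chemokine, led them with 60 UMIs in 4 KO cells and 147 UMIs in 8 WT cells, at 319 CPM (KO) and 453 CPM (WT), against 338 CPM (KO) and 476 CPM (WT) in other cells. Foxp3, the factor of regulatory T cells, had 0 UMIs in both libraries, which by the same 1-sided limit of 3 counts allows up to 12% (KO) and 9.68% (WT) of cells with a UMI. Gzma, Tcrg-C2 and Tcrg-C4 likewise had 0 UMIs in both. Il2ra had 0 UMIs in KO cells and 21 UMIs in 5 WT cells, of which 15 were in cells with Epcam. Tbx21 had 0 UMIs in KO cells and 14 UMIs in 7 WT cells, of which 13 were in cells with Epcam. Both genes were also found in other cells, Il2ra in 7.98% (KO) and 16.3% (WT) and Tbx21 in 6.66% (KO) and 10.9% (WT) of barcodes. Nkg7, a cytotoxic granule gene, had 2 UMIs in 1 KO cell and 14 UMIs in 8 WT cells, a log2 ratio of -2.02 whose interval, -5.20 to 0.10, includes 0. Zbtb16, the factor of innate-like T cells, had 12 UMIs in 3 KO cells and 2 UMIs in 1 WT cell.

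Marker genes of other cell types were counted as well, and no cell type was called from them. The 11 myeloid marker genes summed to 49 UMIs over KO cells and to 226 UMIs over WT cells, and 111 and 89 of the WT UMIs were in 2 cells with Epcam. These sums were 260 CPM (KO) and 697 CPM (WT), against 369 CPM (KO) and 306 CPM (WT) in other cells. The 8 B cell genes were at 133 CPM (KO) and 176 CPM (WT), against 221 CPM (KO) and 161 CPM (WT) in other cells. In cells without Epcam the myeloid genes summed to 5 UMIs (KO) and 1 UMI (WT), and the 8 B cell genes to 5 UMIs (KO) and 2 UMIs (WT). Of the 36 erythroid UMIs in KO cells, 36 were in 1 cell. Cell cycle genes summed to 160 UMIs in KO cells, of which 102 were in the deepest cell, and to 90 UMIs in WT cells. Without Epcam the sums were 6 UMIs (KO) and 20 UMIs (WT).

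The Cd3 genes themselves also appeared outside these cells, where by the rule no cell can hold the whole set. Cd3g, Cd3d and Cd3e lie side by side on mouse chromosome 9, and their promoters, 250 bases before the start site from RefSeq on GRCm38.p6, are shown because Cd3g and Cd3d start back to back on opposite strands, 1355 bases apart, while the starts of Cd3d and Cd3e are 27825 bases apart. Capitals mark a CACCTG or CAGGTG E-box, the letters bound by E proteins, and an AGGAAGT or ACTTCCT match to the ETS core, searched on both strands.
Cd3g, chr9:44980432-44980681, minus strand: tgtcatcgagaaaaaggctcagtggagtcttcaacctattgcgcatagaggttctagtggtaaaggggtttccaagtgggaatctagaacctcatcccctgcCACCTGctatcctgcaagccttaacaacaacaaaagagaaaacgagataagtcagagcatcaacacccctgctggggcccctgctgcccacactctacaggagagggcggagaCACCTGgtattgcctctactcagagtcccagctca
Cd3d, chr9:44981536-44981785, plus strand: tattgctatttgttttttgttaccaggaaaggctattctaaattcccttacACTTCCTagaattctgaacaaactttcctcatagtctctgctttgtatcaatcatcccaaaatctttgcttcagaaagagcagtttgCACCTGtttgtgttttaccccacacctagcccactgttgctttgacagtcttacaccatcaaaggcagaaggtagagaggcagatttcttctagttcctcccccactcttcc
Cd3e, chr9:45009612-45009861, minus strand: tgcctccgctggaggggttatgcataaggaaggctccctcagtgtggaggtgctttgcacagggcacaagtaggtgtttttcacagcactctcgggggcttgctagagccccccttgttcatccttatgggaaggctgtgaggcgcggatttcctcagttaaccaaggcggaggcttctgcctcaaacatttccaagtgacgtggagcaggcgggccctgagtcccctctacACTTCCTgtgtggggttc
The Cd3g window held 2 E-boxes, that of Cd3d 1 E-box and 1 ETS match, and that of Cd3e 1 ETS match. Of 32817 mouse promoter windows of the same length, 17.2% held the E-box and 7.69% the ETS letters.

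In other cells of the library labelled KO, Cd3d had 42 UMIs in 22 cells, Cd3g 51 UMIs in 27 cells and Cd3e 18 UMIs in 16 cells. In other cells of the library labelled WT, Cd3d had 215 UMIs in 48 cells, Cd3g 173 UMIs in 51 cells and Cd3e 45 UMIs in 30 cells. The WT totals for Cd3d and Cd3g thus exceeded the 83 and 77 UMIs of the WT thymocyte-marker cells. Cd3d or Cd3g was present in 41 KO and 79 WT other cells, of which 25 (KO) and 56 (WT) held no TCR constant UMI and 31 (KO) and 67 (WT) held Epcam. Cd3d and Cd3g were found together in 8 KO and 20 WT other cells, and Cd3d with Cd3e in 1 KO and 5 WT other cells. A cell with all 3 CD3 genes meets the rule, so each of these pairs lacks the third gene by construction. Among thymocyte-marker cells Cd3d and Cd3e were found together in 20 of 25 (KO) and 30 of 31 (WT), a pairing that the rule itself favours. The WT cell with most Cd3d had 63 UMIs of it in 30102 UMIs, with 12 UMIs of Epcam, 26 of Aire and 0 of the TCR constant regions. The WT cell with most Cd3g had 36 UMIs of it, 14 of Epcam, 16 of Aire and 0 of the TCR constant regions. Cd3d and Cd3g overlap no other annotated gene, while Cd3e overlaps Gm48720 on the same strand, so its counts are less certain.

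**Figure D4:**
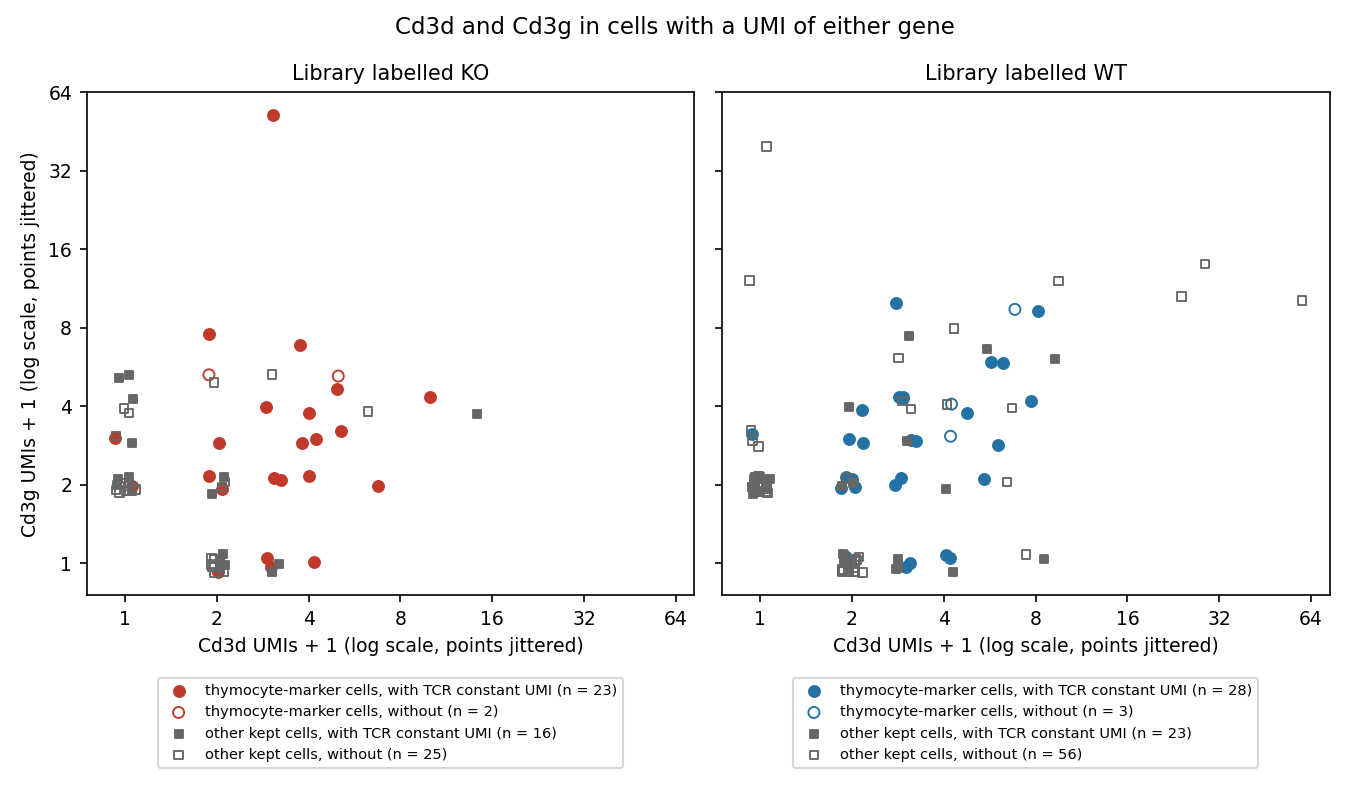
Cd3d UMIs (x axis) against Cd3g UMIs (y axis), each plus 1 on a log scale with a small jitter, in every kept cell with a UMI of either gene, for thymocyte-marker cells (circles) and other cells (squares), filled where a TCR constant UMI was present, library labelled KO at left and WT at right. The WT other cells at up to 63 UMIs of Cd3d and 36 UMIs of Cd3g are open squares, without TCR constant UMIs.

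The libraries were then compared within the thymocyte-marker cells. Of 4992 genes with at least 20 UMIs over both, 329 (6.59%) were at least 2-fold higher and 540 (10.8%) at least 2-fold lower in KO than in WT cells. The excess of lower genes depended on the cells and their weight. With equal weight per cell 615 were higher and 599 lower. Without Epcam 86 (10.3%) of 834 tested were higher and 61 (7.31%) lower. Much of this rested on single barcodes: in 228 of these 869 genes (26.2%) 1 cell held at least 50% of the UMIs of both libraries, against 0.437% of the genes inside 2-fold. Among the 8 genes ranked highest in KO cells were Defb3, a beta-defensin, with 141 UMIs in 2 KO cells and 2 UMIs in 1 WT cell, and Spink1, a protease inhibitor, with 313 UMIs in KO cells (310 in 1 cell) and 11 UMIs in WT cells. BC037156, Lce3b, A830008E24Rik, Apoa1 and Csn1s2a were at 0 UMIs in WT cells and came from 1 to 3 KO cells each, and Tchh had 84 UMIs in KO cells (80 in 1 cell) and 1 in WT cells. On the lower side, Aunip had 1 UMI in KO cells and 205 UMIs in WT cells (204 in 1 cell), and S100a9, a neutrophil calcium-binding protein, 1 UMI in KO cells and 151 in 1 WT cell. Ltf, Dcpp1, Mmrn1, 1700018G05Rik and Dcpp3 were at 0 UMIs in KO cells and came from 1 to 3 WT cells each, and Psors1c2 had 1 UMI in KO cells and 111 in 6 WT cells. These 16 genes belong to no T lineage list, and each was also found in other cells of both libraries. Defb3 had 660 (KO) and 1202 (WT) UMIs there, Spink1 8939 (KO) and 19031 (WT), and S100a9 5186 (KO) and 7191 (WT).

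Of the 50 T lineage genes in the plot of ratios, which leave out the earliest stages and need a UMI in each library, 5 were at least 2-fold higher and 1 at least 2-fold lower in KO than in WT cells. Over all genes the shares were 6.59% higher and 10.8% lower. Of the 16 tested TCR list genes, 12 stood above and 4 below 0 on the log2 scale of KO over WT, 1 of them (Themis) at least 2-fold higher. Their median log2 ratio was 0.27, against -0.02 over all genes. In cells without Epcam 13 were tested, of which 5 stood above and 8 below 0, and their median was -0.17, against -0.08 over all genes. Of these 13, 0 were at least 2-fold higher and 2 at least 2-fold lower, where 10.3% and 7.31% of all genes were. Of the 40021 UMIs of the KO cells without Epcam, 8207 were in 1 cell with 1 TCR list gene. Its UMIs lower the KO level of every T lineage gene it lacks, and ratios without it were not computed. Themis, a TCR signalling protein needed for selection, was at 329 CPM (62 UMIs) in KO and 105 CPM (34 UMIs) in WT cells, a log2 ratio of 1.65 (interval 1.03 to 2.30), but at 0.67 (interval -0.17 to 1.501) without Epcam. Satb1 had 0.75 (interval 0.45 to 1.04) in all cells and 0.02 (interval -0.38 to 0.41) without Epcam.

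Skap1, Trbc2 and Ets1 kept an interval above 0 in both sets, of which the cells without Epcam are a part of the other set. Skap1 had log2 ratios of 0.99 (interval 0.54 to 1.44) in all cells and 0.79 (interval 0.13 to 1.46) without Epcam. Trbc2 had 0.91 (interval 0.56 to 1.25) and 0.53 (interval 0.09 to 0.97), and Ets1 0.90 (interval 0.30 to 1.51) and 0.96 (interval 0.10 to 1.84). Lef1 had a log2 ratio of 0.20 (interval -0.32 to 0.71) in all cells and of -0.95 (interval -1.78 to -0.17) without Epcam. The KO cell of 8207 UMIs with 1 TCR list gene is part of each of these ratios without Epcam. Of the 50 plotted genes 11 had an interval above 0 and 2 an interval below 0, where 8.37% and 9.7% of all genes had. Of the 33 with at least 20 UMIs in cells without Epcam, 3 lay above and 1 below 0, where 9.23% and 8.51% of all genes did. The 3 above 0 are thus near the share over all genes.

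**Figure D5:**
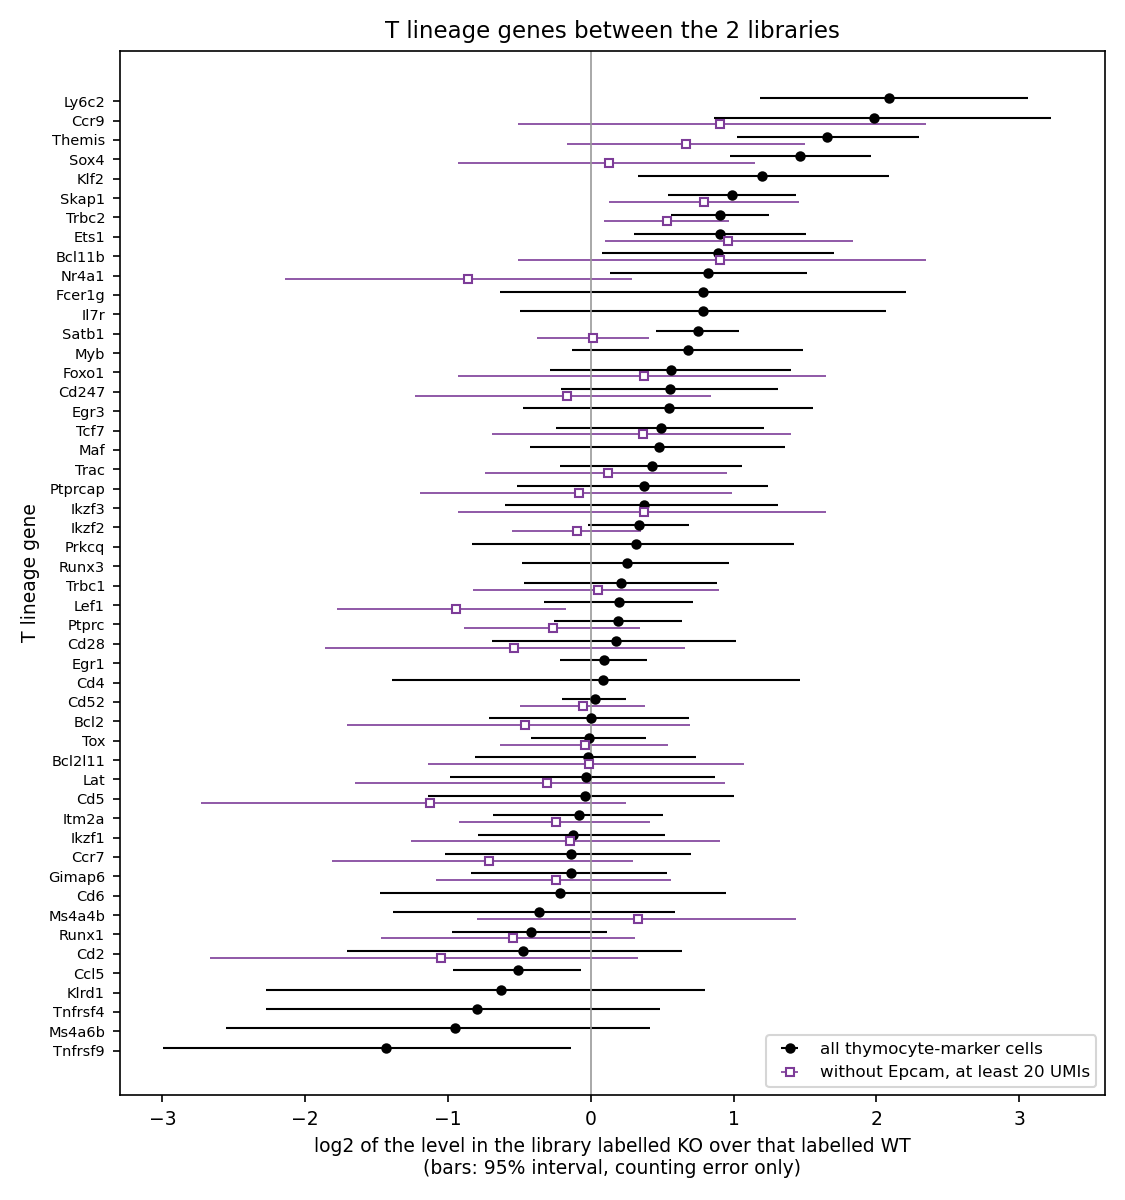
Log2 ratio of the level in the library labelled KO over that labelled WT (x axis) for 50 T lineage genes outside the rule (y axis), in all thymocyte-marker cells (circles) and, for 33 genes, in those without Epcam (squares), with 95% intervals for counting error only. Themis and Satb1 lie above 0 in all cells and have intervals that include 0 without Epcam, while Skap1, Trbc2 and Ets1 lie above 0 in both. The cells without Epcam are part of all cells, and 3 of 33 genes is near the share over all genes.

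Foxp1, which thymocytes also use to stay quiescent, had 73 UMIs in 17 KO cells (388 CPM, interval 304 to 487) and 133 UMIs in 27 WT cells (410 CPM, interval 343 to 486), a log2 ratio of -0.08 with an interval from -0.51 to 0.34. In cells without Epcam the levels were 650 CPM (26 UMIs) in KO and 834 CPM (51 UMIs) in WT cells, a log2 ratio of -0.36 (interval -1.10 to 0.35). Of the 40021 UMIs of these KO cells, 8207 were in 1 cell with 0 Foxp1 UMIs, and the ratio without it was not computed. Foxp1 spans 98925338 to 99522721 on chromosome 6 and overlaps 4 annotated genes on the same strand, so its counts are less certain. Foxp4, its relative, was at 79.7 CPM in KO and 163 CPM in WT cells, with 0 UMIs (KO) and 5 UMIs (WT) in cells without Epcam. Foxp2 had 0 UMIs in KO cells and 8 UMIs in 2 WT cells.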

How the data were processed

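Counts were droplet single-cell UMI counts per gene and barcode, deposited raw and not normalized. Per the file headers they came from Cell Ranger 7.0.1. Cell Ranger, Seurat and the build mm10 appear in the submitters' processing notes, with no steps given. Groups were taken from the sample titles, since the genotype field reads KO for both. Barcodes were kept and thymocyte-marker cells chosen as given above. The cells and the 23 gene lists were chosen with earlier results of these data known. UMIs were summed over cells and scaled to CPM. Intervals are 95%: Clopper-Pearson for shares, Poisson for levels and conditional binomial for ratios. The ratio intervals were run on simulated Poisson counts only, which hold no spread between cells, so the effect of such spread was not tested. A count of 0 was limited at 3 counts over the group. Genes needed 20 UMIs (KO against WT) or 10 UMIs (against other cells). Named genes were list genes taken by role, the 8 per direction with the interval bound farthest from 0 between libraries, and the 10 highest by the lower bound against other cells, without rule, Xist, Y-linked, mitochondrial and ribosomal genes. Doublets were not called or removed, since the rule gathers barcodes that doublets also give. Of 107 T lineage and rule genes, 23 overlap another gene on the same strand and 41 on the opposite strand (GENCODE M21 on GRCm38, the build also named mm10), so their values are less certain. RefSeq promoter windows matched 68 of these 107 symbols. Alternatives were the marker number, thinning, cell filters, the UMI minimum, equal weight per cell, cells without Epcam and, chosen after seeing the data, cells with a TCR constant UMI. Python 3.11.15 was used with numpy 2.4.6, scipy 1.17.1 and pandas 2.3.3. For 1 gene counted in the lists, values are not reported here.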

Additional observations from a re-analysis of the deposited data

How the results depend on the processing

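Of 61 values recomputed under the alternatives, 49 stayed within the limits and 12 moved, where a count moved past 1.5 times and a ratio past the interval of its reported value (for the TCR list, the median bounds of its genes). The log2 ratio of the shares, -0.14 (interval -0.96 to 0.67), became 0.67 (interval -0.48 to 1.87) with at least 4 of the 7 markers and 0.69 (interval -0.85 to 2.32) with the rule applied at 1000 UMIs per cell, and it was 0.04 with no cell filter, so its direction was not settled by these counts. Other values changed sign inside these limits: the log2 ratio of the Epcam shares, 0.20, became -0.12 with at least 2 markers, and the median log2 ratio of the TCR list, 0.27, became -0.17 without Epcam. The 329 of 4992 genes at least 2-fold higher in KO thymocyte-marker cells became 512 of 9028 with at least 2 of the 7 markers. They became 49 of 378 with the rule at 1000 UMIs and 615 of 4992 with equal weight per cell. With a minimum of 50 UMIs they were 84 of 2002, and in cells without Epcam 86 of 834. The 540 of 4992 genes at least 2-fold lower became 929 of 9028 with at least 2 markers and 207 of 2549 with at least 4 (252 higher). With the rule at 1000 UMIs they were 24 of 378, with a minimum of 50 UMIs 145 of 2002, and without Epcam 61 of 834. Equal weight per cell gave 599 of 4992. Lower genes thus outnumbered higher ones as reported, and higher ones lower ones with at least 4 markers, the rule at 1000 UMIs, equal weight or no Epcam. The number of genes tested changed with most settings, so each count stands beside it. Why the counts moved was not tested. Requiring a TCR constant UMI, chosen after seeing the data, moved none of its 7 values by these limits. No paired analysis was possible because each genotype was 1 library. Depth limits what an absent UMI shows, above all for Cd4, Cd8a, Cd8b1, Rag1 and Rag2, and 56 cells limit every share.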

Other observations

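Barcodes with T lineage RNA were also present outside the rule. At least 5 of the 19 TCR list genes were found in 17 other cells of the library labelled KO and in 14 of that labelled WT, and 3 (KO) and 4 (WT) of the other cells reached 10 such genes, the median of the thymocyte-marker cells. By the 100 T lineage genes, 46 KO and 51 WT other cells lay at or above the thymocyte-marker cells' median of 157 (KO) and 165 (WT) UMIs per 10000. These genes include some that epithelial cells also hold, such as Ccl5 and Egr1, so a high sum need not be T cell RNA. The KO median was the value of 1 cell with 1 TCR list gene. The other cell with most Cd3e, in the library labelled WT, had 6 UMIs of it among 2069 UMIs, with 20 TCR constant UMIs and 0 UMIs of Epcam.

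Lck was the marker gene found most often outside the rule, in 135 KO and 193 WT other cells, with 162 UMIs (KO) and 252 UMIs (WT). The other cell with most Lck UMIs held 9 of them in each library, with 15 (KO) and 15 (WT) UMIs of Aire and 0 (KO) and 0 (WT) TCR constant UMIs. Rag1 was found in 12 KO and 10 WT other cells, although 0 WT thymocyte-marker cells held it.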
